A study of Rattus norvegicus with 19 samples.

Results

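The aminoacyl-tRNA synthetase genes encode the enzymes that load each tRNA with its amino acid before protein synthesis. Of 36 genes listed by name for this family, 34 had a row among the 15597 genes of the deposited table, 20 for cytosolic enzymes and 14 of 16 listed for mitochondrial ones. Iars2 and Mars2 were not analysed here. The members were listed by symbol, and the list was chosen with earlier results of these data known. All 34 passed the filter of an FPKM of 1 or more in at least 4 of 19 libraries, as did 11887 genes in all.

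The libraries came from ventral spinal cord cultures of wild-type Sprague-Dawley rat embryos taken at E14. Of these, 5 had received long-chain synthetic polyphosphate, a linear phosphate polymer, at 100 μM for 90 min (polyP), 5 had received medium conditioned by astrocytes of SOD1G93A transgenic mice for 90 min (hSOD1-G93A ACM) and 4 had received medium of astrocytes expressing human wild-type SOD1 for 90 min (hSOD1-WT ACM). The remaining 5 were untreated (control), so the controls had received no conditioned medium of any kind. SOD1 is a superoxide dismutase, and the G93A change causes a familial form of amyotrophic lateral sclerosis, a disease of motor neurons. The series asks which transcripts polyP and mutant astrocyte medium change in common. The conditioned media are of mouse origin and the responding cells are from rat, and the labels do not agree on the days in culture. The cultures were mixed. The summed FPKM of 6 neuronal markers ran from 798.4 to 1516 per library, while 5 motor neuron markers together reached only 1.36 to 3.48 FPKM, so the values say little about motor neurons.

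A synthetase is specific for its amino acid, with the fused glutamate and proline enzyme as an exception, and in mammals most amino acids have separate cytosolic and mitochondrial enzymes encoded by different nuclear genes, while Gars and Kars serve both compartments. In the cytosol a group of synthetases (Dars, Eprs, Iars, Kars, Lars, Mars, Qars and Rars) is held in the multisynthetase complex by the scaffold proteins encoded by Aimp1, Aimp2 and Eef1e1, and the other synthetases act outside it. Several cytosolic synthetase genes are known targets of ATF4, the transcription factor of the integrated stress response, which reacts to uncharged tRNA and binds a composite C/EBP-ATF element. In humans, dominant variants of the genes for the alanine, glycine, histidine, methionine, tryptophan and tyrosine enzymes are linked to inherited peripheral neuropathy.

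Promoter windows of RefSeq, from 250 bases before to 50 bases after the annotated start of each gene, were matched by gene identifier to 31 of the 34 members. They are on the GRCr8 build, while the reads had been aligned to rn6, so no position is taken from the expression table. The letters TGATGNAA, the core of the C/EBP-ATF element, were searched on both strands. They were found in 7 of 17 cytosolic windows (41.2%) and 0 of 14 mitochondrial windows, and in 2.04% of the windows of the 9586 tested genes that had one and 3.82% of all 27457 windows. A match is a description of the letters and not evidence of binding. The match nearest the annotated start of each of these 7 genes is shown because these matches mark out a group of cytosolic genes whose changes are followed below. Each is a stretch of 30 bases read on the strand of its gene, with the element in capitals.
Aars, chr19:55908480-55908509, plus strand: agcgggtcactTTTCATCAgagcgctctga
Cars, chr1:208225334-208225363, minus strand: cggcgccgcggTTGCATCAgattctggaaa
Iars, chr17:15193658-15193687, minus strand: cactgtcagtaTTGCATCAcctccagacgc
Mars, chr7:65023752-65023781, minus strand: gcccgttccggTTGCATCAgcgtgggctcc
Nars, chr18:60275778-60275807, minus strand: cctaggtgatcTGATGCAAcgcttcagtca
Tars, chr2:62114811-62114840, minus strand: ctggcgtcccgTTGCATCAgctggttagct
Yars, chr5:146820183-146820212, plus strand: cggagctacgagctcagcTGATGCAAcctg

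Counted from the annotated start, the first base of the element lay between positions -27 and 39 in the 7 matches shown. In Nars and Yars it ran with the gene, and in the others against it. The ETS letters CCGGAAG, searched on both strands, were in 14 of 31 windows (45.2%), against 17.4% of the windows of tested genes. The E-box letters CACGTG, which read the same on both strands, were in 6 of 31 (19.4%), against 9.44%. No match of one motif in a member overlapped a match of another. A further stretch is shown because a pair of members shares it. The genes of the cytosolic and the mitochondrial histidine enzymes, Hars and Hars2, start 144 bases apart and run away from each other, Hars on the minus strand and Hars2 on the plus strand. The 145 bases from one start to the other, on the plus strand, hold 2 ETS matches, given in capitals.
Hars and Hars2, chr18:28672712-28672856: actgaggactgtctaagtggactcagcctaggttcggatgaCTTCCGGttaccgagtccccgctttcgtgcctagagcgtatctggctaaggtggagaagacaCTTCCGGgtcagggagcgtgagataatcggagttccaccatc

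Levels are given as FPKM, a fragment density corrected for transcript length and library total, which allows genes to be set side by side per length. In control cultures the mean of every cytosolic member was above the mean of every mitochondrial one. Single libraries of Farsb (26.66 to 32.41 FPKM) and Tars2 (20.58 to 31.98 FPKM) overlapped. The highest was Aars, the alanine enzyme, at 115 ± 4.10 FPKM (SD, n = 5), above 94.1% of the tested genes, followed by the serine enzyme Sars at 101 ± 11.4 and Eprs, which charges both glutamate and proline tRNA, at 98.96 ± 4.99 FPKM. The lowest cytosolic means were those of Lars, the leucine enzyme, at 39.2 ± 2.78 and Farsb, the beta subunit of the phenylalanine enzyme, at 29.95 ± 2.27 FPKM. Its partner subunit Farsa stood at 41.65 ± 3.81 FPKM. Among the 14 mitochondrial members Tars2, for threonine, was highest at 25.7 ± 5.09 FPKM, and Pars2, for proline, was lowest at 2.82 ± 0.224 FPKM. The libraries of neighbours in this order overlapped in all but 5 places. The gaps were after Lars, Tars2, Hars2, Ears2 and Wars2, so neighbours within the cytosolic group above Lars are not told apart by these libraries, although members farther apart in the order can be.

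**Figure D1:**
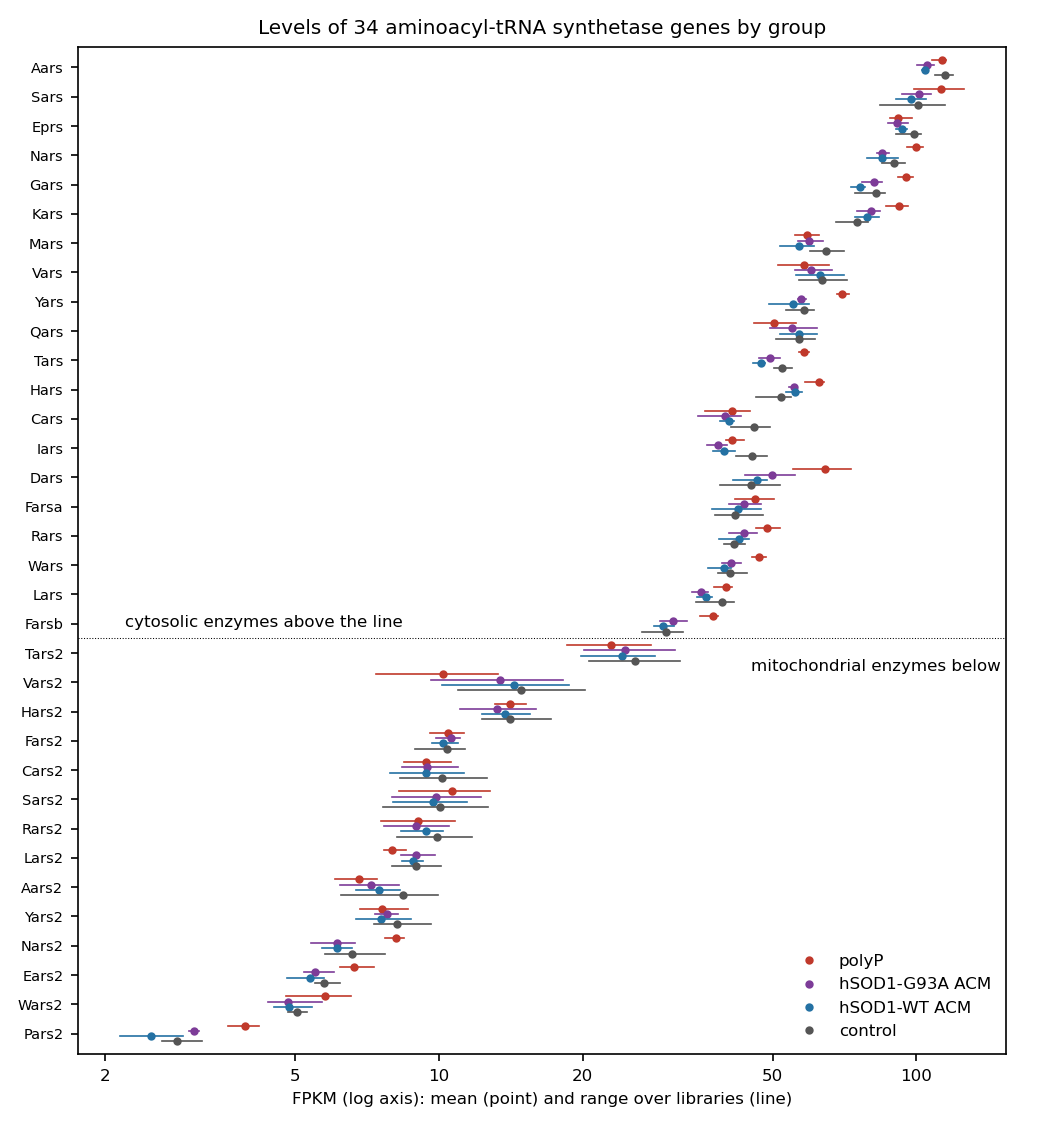
Mean FPKM (points) and the range over libraries (lines) of the 34 synthetase genes in the 4 groups, on a log axis, ordered by the control mean. The 20 cytosolic genes stand above the 14 mitochondrial ones, from Aars at 115 to Pars2 at 2.82 FPKM in control.

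Clustering of the libraries, done after the data were examined, gave 2 sets that no label names and that each hold every treatment. Set 1 held 3 polyP, 3 hSOD1-G93A ACM, 2 hSOD1-WT ACM and 3 control libraries, with 6 oligodendrocyte markers summing to 333 to 632 FPKM. Set 2 held 2 libraries of each group, with the same markers at 50.8 to 71.0 FPKM. The microglia markers summed to 58.71 to 429.4 FPKM in set 1 and 35.89 to 47.18 in set 2. The astrocyte markers summed to 281.3 to 427.8 and 201.5 to 255.2 FPKM, so these lists were apart as well. The sums of the other marker lists overlapped between the sets. The members are described between these sets with no test. The rounded ratio of the set 2 mean to the set 1 mean was above 1 for 11 of 14 mitochondrial members. It was 1 for Ears2 (5.846 and 5.835 FPKM). Vars2, for valine, averaged 16.8 ± 2.85 FPKM in set 2 (n = 8) and 10.5 ± 1.97 FPKM in set 1 (n = 11). Tars2 averaged 29.2 FPKM in set 2 and 20.8 FPKM in set 1, and its libraries did not overlap between the sets, nor did those of Cars2 and Hars2. The sets came from clustering these same libraries. The shares of all tested genes apart between the sets or higher in set 2 were not computed, so these counts have no background. Of 20 cytosolic members 11 had such a ratio above 1, and Farsb was at 1 (32.19 FPKM in set 2 and 32.04 in set 1). Vars was the only cytosolic member whose libraries did not overlap. The summed FPKM of the 14 mitochondrial genes spanned 118.6 to 149.8 with polyP, 117.9 to 153.9 with hSOD1-G93A ACM, 116.5 to 150.6 with hSOD1-WT ACM and 120.7 to 164.6 in control. Within every group the set 2 libraries were the high ones. The 20 cytosolic genes summed to 1294 to 1367 FPKM with polyP, 1182 to 1238 with hSOD1-G93A ACM, 1162 to 1225 with hSOD1-WT ACM and 1180 to 1283 in control. As deposited, the polyP sums lay above those of the other 3 groups without overlap, but the polyP libraries also had larger totals. As a share of the summed FPKM of the library, the cytosolic genes took 0.259 to 0.272% with polyP, 0.244 to 0.261% with hSOD1-G93A ACM, 0.248 to 0.260% with hSOD1-WT ACM and 0.254 to 0.279% in control. On that scale polyP and control overlapped, and the mean was 0.264% with polyP and 0.267% in control.

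**Figure D2:**
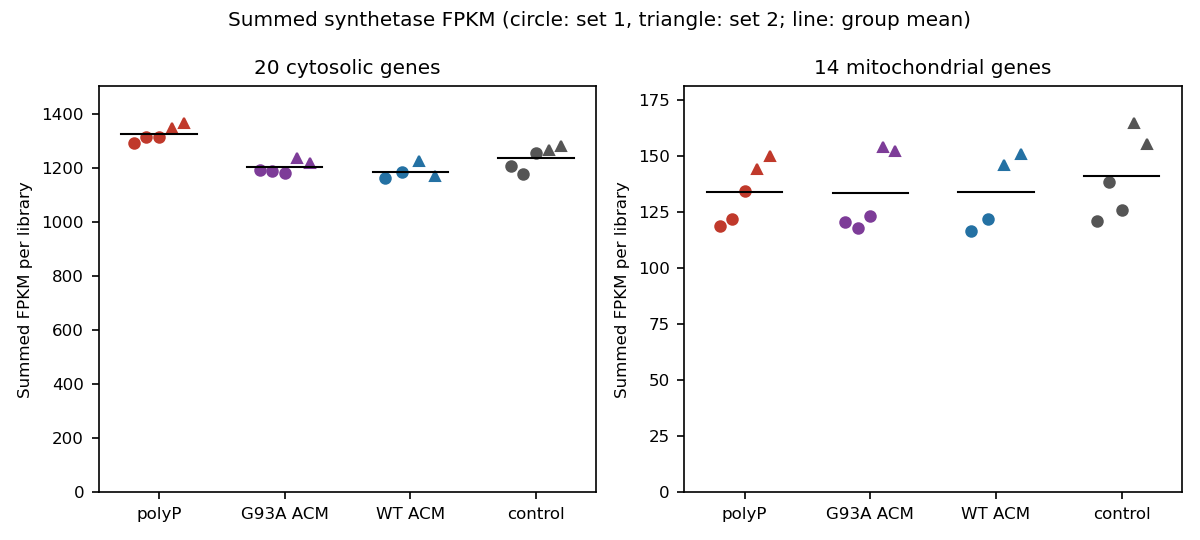
Summed FPKM of the 20 cytosolic and the 14 mitochondrial synthetase genes in each library, by group, with set 1 as circles, set 2 as triangles and the group mean as a line. The cytosolic sums with polyP (1294 to 1367) stand above all others as deposited, while as a share of the library total they overlap control (0.259 to 0.272% with polyP, 0.254 to 0.279% in control), and the mitochondrial sums separate the sets inside each group.

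With polyP, 10 of 20 cytosolic synthetase genes rose and 1 fell against control, and 3 of 14 mitochondrial ones rose. The genes that rose were Dars, Farsb, Gars, Hars, Kars, Nars, Rars, Tars, Wars and Yars in the cytosol and Ears2, Nars2 and Pars2 for the mitochondrion, and Iars, the isoleucine enzyme, fell. The changes were small, with the largest a 1.43-fold higher mean for Dars. In all 13 of 34 members were called higher (38.2%) and 1 was called lower, where 23.0% of all tested genes were called higher and 8.77% lower (31.8% either way). These calls are from limma on log2(FPKM + 1) over all 19 libraries, at a Benjamini-Hochberg adjusted p under 0.05. The added 1 makes a log2 difference understate the change of low genes such as Pars2. The polyP and control libraries did not overlap for 12 members, all higher with polyP, against 14.6% of all tested genes higher and 4.31% lower. In these bulk cultures fewer cells of a type and less RNA per cell cannot be told apart.

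**Figure D3:**
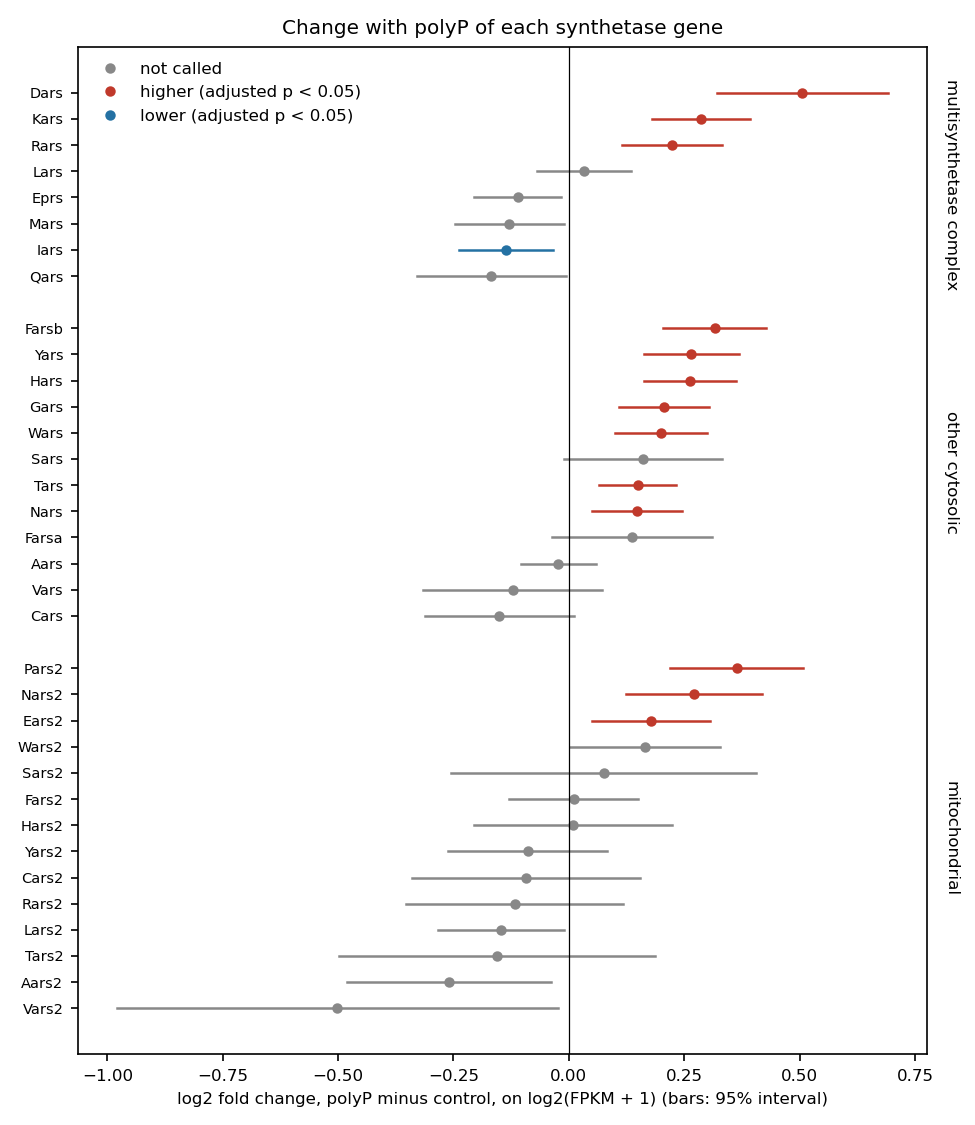
Log2 difference, polyP minus control, on the log2(FPKM + 1) scale with its 95% interval, for the 34 genes grouped as multisynthetase complex, other cytosolic and mitochondrial. Red marks the 13 genes called higher, blue the 1 called lower (Iars, -0.14) and grey the rest; Dars stands farthest to the right at 0.51.

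Dars, the aspartate enzyme of the multisynthetase complex, had 66.83, 72.89, 66.17, 55.21 and 60.86 FPKM in polyP libraries, against 47.41, 43.74, 51.84, 38.79 and 43.48 FPKM in control. Every polyP library lay above every control library. The log2 difference was 0.51 (SE 0.089, limma adjusted p = 0.00044), and it was 0.52 within set 1 and 0.49 within set 2. Kars, the lysine enzyme of the complex, had 90.78, 91.92, 86.5, 94.27 and 95.94 FPKM with polyP, against 76.25, 67.94, 79.31, 74.44 and 78.4 FPKM in control. Its groups did not overlap either, with a log2 difference of 0.29 (SE 0.05, limma adjusted p = 0.000466) and 0.27 and 0.31 within the 2 sets. Farsb had 37.91, 38.11, 35.23, 37.74 and 38.37 FPKM with polyP, against 32.41, 26.66, 30.32, 28.85 and 31.52 FPKM in control. The polyP libraries were close to each other apart from replicate 3, the lowest, and the log2 difference was 0.32 (SE 0.053, limma adjusted p = 0.000345). The other subunit of the same enzyme, Farsa, averaged 45.9 ± 3.91 FPKM with polyP and 41.65 ± 3.81 FPKM in control and was not called (0.14, adjusted p = 0.219).

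Yars, the tyrosine enzyme, had 70.13, 68.98, 68.13, 70.21 and 72.13 FPKM in polyP libraries and 58.78, 53.44, 61.08, 56.97 and 60.01 FPKM in control libraries. The groups were apart, and the log2 difference was 0.27 (SE 0.049, limma adjusted p = 0.00066). Iars had 40.24, 41.02, 43.49, 39.95 and 41.13 FPKM with polyP, against 41.95, 43.23, 47.36, 48.75 and 45.64 FPKM in control. It was the one member called lower, with a log2 difference of -0.14 (SE 0.049, limma adjusted p = 0.04), and its groups overlapped. The difference was -0.08 within set 1 and -0.21 within set 2. The call of Iars was lost when any 1 of 7 libraries was left out (control replicates 3, 4 and 5 and polyP replicates 1, 2, 4 and 5), with adjusted p between 0.0646 and 0.113.

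**Figure D4:**
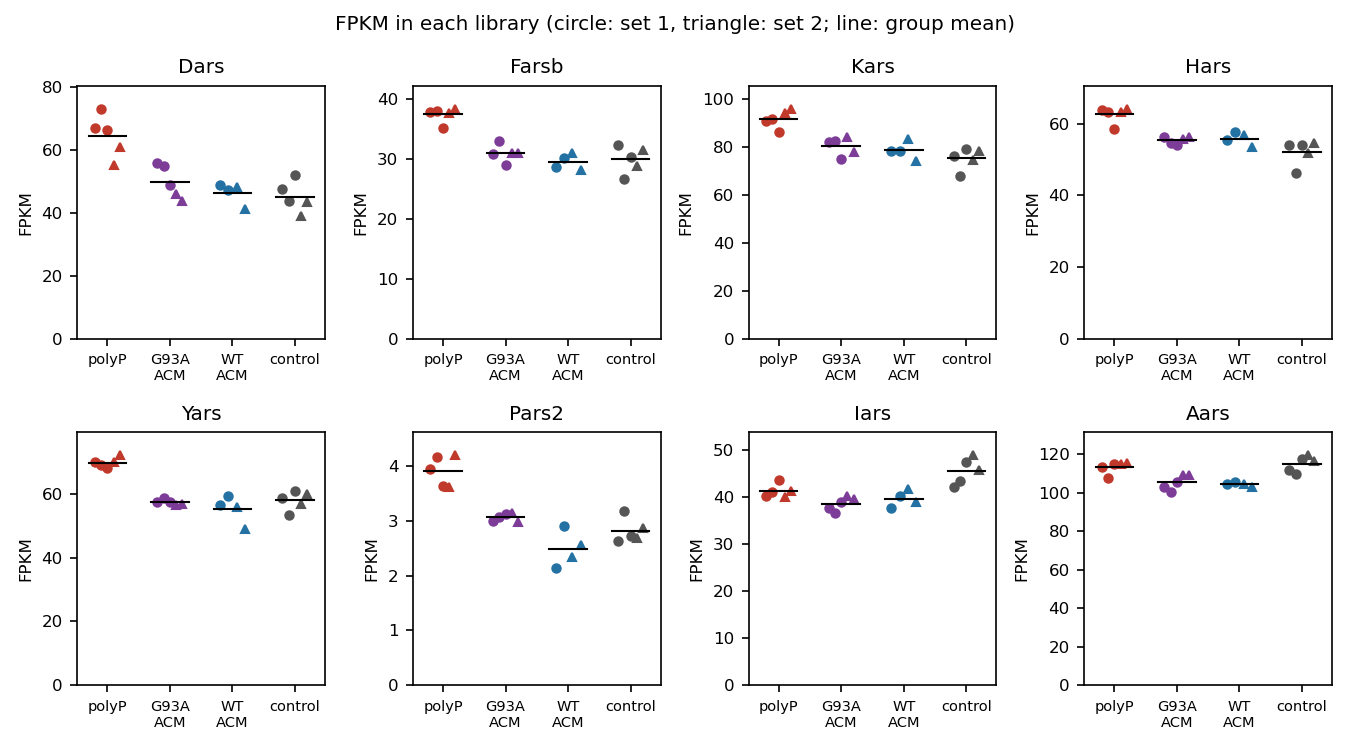
FPKM in every library of Dars, Farsb, Kars, Hars, Yars, Pars2, Iars and Aars by group, with set 1 as circles, set 2 as triangles and a line at the group mean. For the first 6 genes the polyP libraries lie above all control libraries, while the mean of Iars is below control in each treated group and all Aars libraries of both conditioned media lie below the control libraries.

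Among the mitochondrial genes Pars2 rose most. It had 3.95, 4.18, 3.64, 3.62 and 4.2 FPKM in polyP libraries and 2.63, 3.19, 2.73, 2.69 and 2.87 FPKM in control, with a log2 difference of 0.36 (SE 0.068, limma adjusted p = 0.00071). The groups did not overlap, and the difference was 0.36 within set 1 and 0.38 within set 2. Nars2, the mitochondrial asparagine enzyme, had 7.89, 8.28, 8.47, 8.3 and 7.7 FPKM with polyP and 6.68, 6.82, 7.71, 5.96 and 5.77 FPKM in control. Control replicate 3 reached the lowest polyP value, and the log2 difference of 0.27 (SE 0.07, limma adjusted p = 0.00654) was 0.19 within set 1 and 0.39 within set 2. Ears2, the mitochondrial glutamate enzyme, averaged 6.64 ± 0.444 FPKM with polyP and 5.75 ± 0.275 FPKM in control (0.18, limma adjusted p = 0.0324). Its call was lost without control replicate 1 or 4 or polyP replicate 2, 3 or 5, with adjusted p between 0.0534 and 0.0967. The largest negative difference of all members was that of Vars2, which had 7.37, 7.45, 11.29, 11.71 and 13.31 FPKM with polyP and 10.96, 14.41, 11.66, 20.21 and 17.18 FPKM in control. It was not called (-0.50, SE 0.227, limma adjusted p = 0.102), and its libraries spread with the sets. Within set 1 the difference was -0.48 (limma adjusted p = 0.049) and within set 2 it was -0.54 (limma adjusted p = 0.000673). Of the 11887 tested genes 651 were called lower in set 1 alone and 2144 in set 2 alone. The sets came from clustering these same libraries. Of the histidine pair that starts from the shared stretch printed above, Hars rose and Hars2 was not called. Hars stood apart from control, with 63.88, 63.36, 58.58, 63.33 and 64.11 FPKM with polyP against 53.94, 46.18, 54.12, 51.89 and 54.6 FPKM in control (0.26, limma adjusted p = 0.000546), while Hars2 averaged 14.1 ± 0.901 FPKM with polyP and 14.1 ± 1.97 FPKM in control (0.01, limma adjusted p = 0.956). The difference between these 2 changes was not itself tested.

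Grouped by role, 3 of 8 enzymes of the multisynthetase complex rose (Dars, Kars and Rars) and 1 fell (Iars), with a median log2 difference of -0.04. Of the 12 cytosolic enzymes outside the complex 7 rose and 0 fell, with a median of 0.15, against 3 higher and 2 lower (Aars and Cars) at an equal library sum, and the mitochondrial median was -0.04. The median over all tested genes was 0.04 as deposited, with 23.0% of them called higher and 8.77% lower. At an equal sum 1404 of 11887 tested genes were higher and 1667 lower. Both dual-compartment enzymes, Gars and Kars, rose, and Gars averaged 95.1 ± 2.97 FPKM with polyP and 82.5 ± 4.68 FPKM in control. Of the 6 genes linked to inherited neuropathy 4 rose, namely Gars (0.21, limma adjusted p = 0.00271), Hars, Wars (0.20, limma adjusted p = 0.00397) and Yars. At an equal library sum this list held 2 higher (Hars and Yars) and 2 lower (Aars and Mars). Aars, the most abundant member, averaged 113 ± 3.14 FPKM with polyP and 115 ± 4.10 FPKM in control (-0.02, limma adjusted p = 0.68, 95% interval -0.10 to 0.06). Mars, the methionine enzyme, averaged 58.9 ± 2.68 FPKM with polyP and 64.6 ± 3.98 FPKM in control (-0.13, limma adjusted p = 0.0878). The remaining calls were Rars (arginine, 0.22), Tars (threonine, 0.15) and Nars (asparagine, 0.15), and the call of Nars was lost without control replicate 2 (limma adjusted p = 0.0527).

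How the libraries are scaled bears on the split between higher and lower. The polyP libraries summed to 502342 ± 12154 FPKM and the control libraries to 464188 ± 13827 FPKM (SD, n = 5 each). Setting all libraries to an equal sum moved the median over all genes to -0.058, from 0.043 as deposited, and gave 6 members higher and 8 lower. Median-of-ratios scaling gave 9 higher and 8 lower, and quantile normalization 11 higher and 5 lower. Of the 11887 tested genes 2736 were higher and 1043 lower as deposited, and 1404 and 1667 at an equal sum. Median-of-ratios scaling gave 1793 and 1545 of them, and quantile normalization 2320 and 1105. Dars, Farsb, Hars, Kars, Pars2 and Yars were called higher under these 3 scalings and under all 29 alternatives tried. Aars, Eprs, Iars, Mars and Qars were called lower under all 3 scalings, and all but Aars belong to the multisynthetase complex. Within the complex the scalings gave 2 or 3 genes higher and 4 lower. Dars and Kars were called higher as deposited too, and of the 4 lower only Iars was called as deposited. Eprs, Mars and Qars were not (limma adjusted p = 0.0665, 0.0878 and 0.106). Their lower calls here depend on the scaling chosen, as does that of Aars (-0.02 as deposited and -0.14 at an equal sum). The direction turned under the equal sum for Lars, Fars2, Hars2 and Sars2, none of which was called as deposited.

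Several genes that work with the synthetases rose with polyP. As deposited, the counts of the lists that follow stand beside 23.0% of all tested genes called higher and 8.77% lower, with a median of 0.04. At an equal sum they stand beside 1404 of 11887 tested genes higher and 1667 lower. Of the 3 scaffold genes of the complex 2 rose. Aimp1 averaged 47.0 ± 2.78 FPKM with polyP and 37.3 ± 2.65 FPKM in control (0.33, limma adjusted p = 0.000357), and Eef1e1 averaged 82.4 ± 4.56 and 64.2 ± 9.02 FPKM in the same groups (adjusted p = 0.00201). Aimp2 was not called (0.16, adjusted p = 0.111). Of 7 genes that carry charged tRNA to the ribosome or recharge the carrier 5 rose, with a median of 0.28, and the highest was Eef1d, an exchange factor of elongation factor 1, at 96.3 ± 8.31 FPKM with polyP and 72.1 ± 6.09 FPKM in control. Of 35 genes for tRNA maturation and export 15 rose and 0 fell, with a median of 0.19. Tsen15, a subunit of the tRNA splicing endonuclease, averaged 17.8 ± 1.43 FPKM with polyP and 11.9 ± 1.23 FPKM in control (0.55, limma adjusted p = 0.000119). Ssb, the La protein that binds the ends of new tRNA transcripts, averaged 117 ± 5.02 and 90.1 ± 8.18 FPKM (0.38, limma adjusted p = 0.000229). With an equal sum this list held 7 higher and 2 lower, the scaffold list 2 higher and 0 lower, and the delivery list 4 higher and 0 lower. Of 7 genes with an editing activity, 3 rose (Dtd1, Dtd2 and Prorsd1) and Iars fell, against 1 higher and 2 lower with an equal sum. Of 3 genes for the mitochondrial amidotransferase and methionyl-tRNA formylation limma called 0, with 0 at an unadjusted p under 0.05.

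The stress-response genes did not go one way. Of 10 genes of the integrated stress response limma called 4 higher and 1 lower with polyP. Eif2s1, the regulated subunit of initiation factor 2, averaged 71.6 ± 3.98 FPKM with polyP and 53.8 ± 4.48 FPKM in control, and Gcn1l1, a partner of the kinase that senses uncharged tRNA, averaged 39.4 ± 3.08 and 49.3 ± 5.71 FPKM. Of 33 known ATF4 targets other than synthetases, Atf4 itself listed among them, 9 rose (27.3%) and 7 fell (21.2%), with a median of 0.09. The share that rose was close to the 23.0% of all tested genes called higher, and 8.77% of all were called lower. Psat1 and Psph, both of serine synthesis, rose by 0.74 and 0.44, while Slc3a2, the heavy chain of amino acid exchangers, was at 139 ± 9.99 FPKM with polyP and 189 ± 20.6 FPKM in control. With an equal sum 6 of these targets were higher and 10 lower, and 1 of the 10 stress-response genes was higher and 4 lower. On that scale 1404 of 11887 tested genes were higher and 1667 lower.

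Markers of other cells moved with polyP as well. The summed FPKM of 5 dividing-cell genes was 260.4 to 316.5 in polyP libraries and 182.7 to 231.8 in control libraries, without overlap, and 3 of the 5 were called higher (Pcna, Mcm2 and Ccnb1). The 4 fibroblast markers summed to 312.8 to 621.6 with polyP and 489.4 to 806.1 in control, and 1 of them, Col1a1, was called lower. The log2 differences of this list ran from -0.49 to 0.68, with 2 positive (Dcn and Lum) and 2 negative and a median of -0.03. The 6 microglia markers summed to 42.0 to 135.8 with polyP and 41.2 to 429.4 in control, and limma called 0 of them, with 0 at an unadjusted p under 0.05. All 6 differences were negative, with a median of -0.76, the lowest among the lists with more than 1 tested marker. The 6 oligodendrocyte markers summed to 67.7 to 609.7 with polyP and 54.65 to 627.3 in control, and 1 of them, Mobp, was called lower at 0.78 ± 0.177 FPKM with polyP and 1.12 ± 0.112 FPKM in control. Of the 6 astrocyte and 6 neuron markers limma called 0, with 0 at an unadjusted p under 0.05. No marker of these lists was at 0 in every library. The part of these shifts in the synthetase changes was not tested.

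The conditioned media gave no called synthetase gene. Between hSOD1-G93A ACM and hSOD1-WT ACM, which asks what the mutant astrocytes add, limma called 0 of 34 members either way, with 1 at an unadjusted p under 0.05. Of all tested genes 0.00841% were called higher and 0.463% lower in this comparison (0.471% either way). Pars2 had 3.0, 3.08, 3.13, 3.14 and 2.99 FPKM with hSOD1-G93A ACM and 2.15, 2.91, 2.34 and 2.56 FPKM with hSOD1-WT ACM. It was the only member whose groups did not overlap, where 1.35% of all tested genes were apart in that direction and 1.37% in the other (0.23, SE 0.072, limma adjusted p = 0.493). The difference was 0.21 within set 1 and 0.24 within set 2. Among the cytosolic members Gars had the smallest p, at a log2 difference of 0.10 (limma adjusted p = 0.998).

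Against control, hSOD1-G93A ACM again gave 0 called members by limma, with 5 at an unadjusted p under 0.05 (0.0168% of all tested genes higher, 0.00% lower). The difference was negative for 23 of 34, where 51.6% of all tested genes had a positive one. Iars had 37.64, 36.43, 38.78, 40.09 and 39.6 FPKM with hSOD1-G93A ACM, below all of the control values given above. Its log2 difference was -0.23 (SE 0.049, limma adjusted p = 0.301), and it was -0.23 within set 1 and -0.24 within set 2. Aars had 102.93, 100.51, 105.44, 109.05 and 108.95 FPKM with hSOD1-G93A ACM and 111.84, 109.57, 117.58, 119.31 and 116.6 FPKM in control (-0.13, limma adjusted p = 0.966). These 2 genes were the only members whose groups did not overlap, where 0.118% of all tested genes were apart in that direction. Among mitochondrial members Aars2 had the smallest p (-0.19, limma adjusted p = 0.966).

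With hSOD1-WT ACM against control limma called 0 of 34 members, with 5 at an unadjusted p under 0.05 (0.564% of all tested genes higher, 0.0673% lower and 0.631% either way). The difference was negative for 28 of 34, including all 14 mitochondrial members, with a median of -0.07. Over all tested genes 49.7% of the differences were positive, with a median of 0. With a library left out the mitochondrial median ran from -0.11 (without control replicate 3) to -0.02 (without control replicate 4). Iars had 37.54, 40.04, 41.69 and 38.91 FPKM with hSOD1-WT ACM (-0.19, limma adjusted p = 0.164), Aars had 104.64, 105.43, 104.4 and 102.78 FPKM (-0.14, limma adjusted p = 0.285) and Tars had 48.27, 47.82, 47.7 and 45.48 FPKM (-0.14, limma adjusted p = 0.293). All 4 libraries lay below every control library for these 3 genes, as in 0.488% of all tested genes, while 1.14% were apart the other way. Iars was called lower with the set of libraries as a term (limma adjusted p = 0.0386) and under quantile normalization (0.0481), and Mars with the set term (0.0138). Of the 11887 tested genes 126 were higher and 17 lower with the set term, and 74 and 9 under quantile normalization. Of 33 ATF4 targets 5 were called lower with hSOD1-WT ACM. Chac1, a glutathione-degrading enzyme, averaged 30.5 ± 4.32 FPKM with hSOD1-WT ACM and 50.3 ± 5.29 FPKM in control (-0.71, limma adjusted p = 0.00146), and the others were Asns, Mthfd2, Sesn2 and Trib3. With hSOD1-G93A ACM limma called 0 of the 33 against control, with 10 at an unadjusted p under 0.05, and Chac1 averaged 33.3 FPKM. The 3 comparisons with control share the control libraries.

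The 7 cytosolic genes that hold the C/EBP-ATF letters, printed above, are set beside the 10 with a window without them. With hSOD1-G93A ACM against control all 7 differences were negative, with a median of -0.11, while the 10 others had 6 positive and 4 negative, with a median of 0.01. With hSOD1-WT ACM all 7 were negative as well, with a median of -0.14, and the 10 others had 4 positive and 6 negative, with a median of -0.02. With polyP against control 3 of the 7 rose (Nars, Tars and Yars) and 1 fell (Iars), with a median of -0.02, and 4 of the 10 rose, with a median of 0.15. Dars, Gars and Rars had no window and are in neither group. The same control libraries enter all 3 comparisons, and the difference between the gene groups was not tested.

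**Figure D5:**
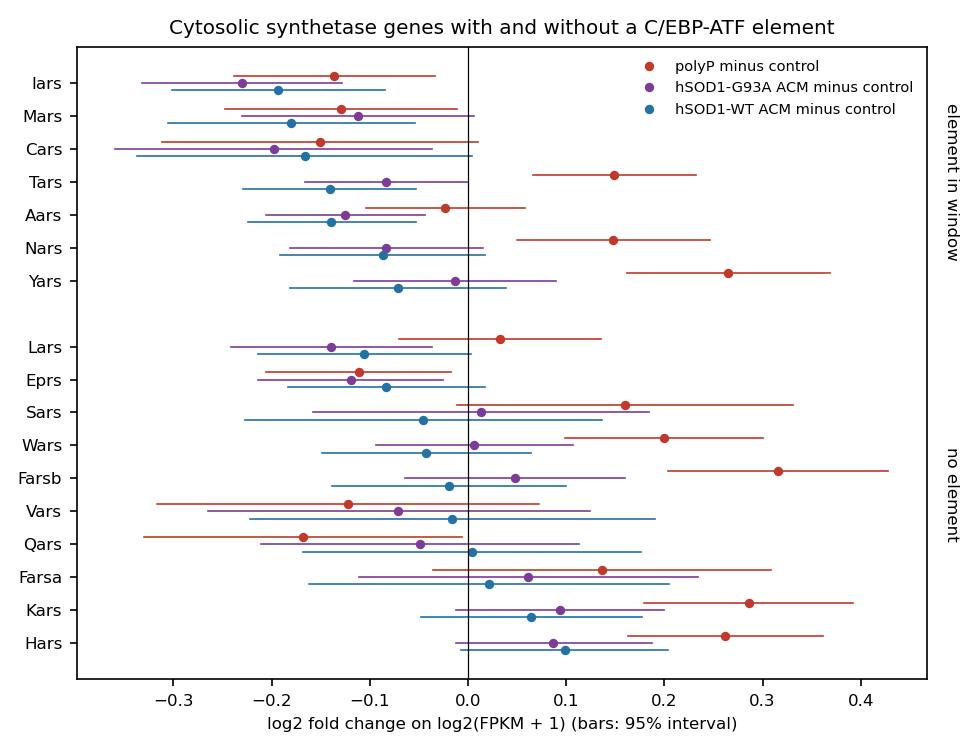
Log2 differences against control on the log2(FPKM + 1) scale with 95% intervals for cytosolic genes with the C/EBP-ATF letters in the promoter window (7) and without (10), for polyP, hSOD1-G93A ACM and hSOD1-WT ACM. All 7 genes with the letters lie below 0 with both conditioned media, and with polyP they lie on both sides.

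Between the 2 treatments the series sets side by side, 14 of 34 members were higher with polyP than with hSOD1-G93A ACM and 0 were lower (41.2%), where 14.8% of all tested genes were higher and 4.90% lower (19.7% either way). The libraries of 12 members did not overlap, all higher with polyP, against 12.3% of all tested genes higher and 3.92% lower. The 14 were those called higher against control plus Lars. Dars averaged 64.4 ± 6.67 FPKM with polyP and 49.8 ± 5.30 FPKM with hSOD1-G93A ACM (SE 0.089, limma adjusted p = 0.00938), with overlap. Tars had 56.89, 57.23, 59.47, 57.37 and 59.52 FPKM with polyP and 50.15, 51.74, 49.32, 48.5 and 46.93 FPKM with hSOD1-G93A ACM, without overlap (0.23, SE 0.039, limma adjusted p = 0.00144). Nars2 had the polyP values given above, and 6.66, 6.28, 6.04, 6.26 and 5.4 FPKM with hSOD1-G93A ACM (0.36, limma adjusted p = 0.0033). Yars, Pars2 and Farsb differed by 0.28, 0.27 and 0.27. Within set 1 and set 2 the differences were 0.37 and 0.36 for Dars, 0.20 and 0.29 for Tars and 0.33 and 0.40 for Nars2.

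Libraries of these 2 treatments with the same number deviated together, but they were also of the same set, so pairing is not shown. The fit with the replicate number as a block is given beside them. It called 16 members higher and 1 lower, where 2562 of the 11887 tested genes were higher and 1205 lower. Without the block 1760 genes were higher and 582 lower. Aars (limma adjusted p = 0.0469) and Wars2 (0.0276) were added as higher and Vars2 as lower (-0.35, limma adjusted p = 0.0243). The call of Rars was lost in 16 of 29 alternatives, 10 of them with a single library left out. Set 1 alone gave 0 members higher, where 60 genes in all were called higher and 56 lower. Dars, Farsb, Gars, Nars, Nars2, Tars and Yars were called higher under all 3 scalings. At an equal sum 7 members were higher and 0 lower, against 787 and 746 of the 11887 tested genes. Iars averaged 41.2 ± 1.39 FPKM with polyP and 38.5 ± 1.49 FPKM with hSOD1-G93A ACM and was not called (0.09, limma adjusted p = 0.197).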

How the data were processed

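Gene expression was measured by RNA-seq of 19 libraries. FPKM values were deposited by the authors as 1 table, per the file headers. Reads were aligned with HISAT to rn6, per the submitters' processing notes. For the versions, the annotation, the FPKM tool and the number of fragments, the sources used here name none, so depth is unknown and no counting interval is given. Libraries summed to 446366 to 515541 FPKM, and 11309 to 11723 genes reached an FPKM of 1.

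Groups came from the labels. Values were analysed as log2(FPKM + 1), on genes with an FPKM of 1 or more in at least 4 libraries, with limma 3.58.1 (trend and robust, statmod 1.5.0, R 4.3.3), group as the only term and Benjamini-Hochberg adjustment over 11887 genes. The fit was tested on simulated data. P-values measure the spread between libraries. Alternatives were another added constant (0.1), no filter, 3 scalings, the replicate block, the set of libraries, each set alone, only the groups compared, and each library left out. The text gives in full the called members with the largest change, at most 6 a direction, the smallest p of a compartment without a call, and 6 neuropathy genes. The members and lists were chosen with earlier results of these data known.

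Same-numbered libraries of polyP and hSOD1-G93A ACM deviated together, with correlations of deviations from the group means of 0.69 to 0.76 in 5 of 5 pairs. In both groups replicates 1, 2 and 3 were of set 1 and replicates 4 and 5 of set 2. Replicate 3 of hSOD1-WT ACM, of set 2, correlated at -0.53 with polyP and -0.72 with hSOD1-G93A ACM. Correlations between libraries with different numbers were not computed, so pairing by number cannot be told apart from the sets. In each other comparison at least 1 pair was at or below 0.1. Promoter windows were matched by gene identifier to RefSeq (GRCr8), and 1 promoter stretch is not reported here. Identical libraries were looked for and 0 pairs were found. Tables and figures used pandas 2.3.3 and matplotlib 3.10.9.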

Additional observations from a re-analysis of the deposited data

Results flagged for a closer look

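Among 136 groups of 4 or 5 libraries, 1 for each member and treatment, 4 held a library whose gap to the nearest other was large for the range of the group by Dixon's criterion, and chance gives about 1 in 20 groups. Farsb was 35.23 FPKM in polyP replicate 3 and 37.74 to 38.37 in the other polyP libraries. Hars was 58.58 FPKM in the same library and 63.33 to 64.11 in the others. Lars was 37.72 FPKM in polyP replicate 4 and 40.32 to 41.07 in the others. Gars was 74.3 FPKM in control replicate 2 and 83.2 to 85.99 in the other control libraries.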

How the results depend on the processing

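Of the members called with polyP against control, Dars, Farsb, Hars, Kars, Pars2 and Yars kept their call in all 29 alternatives. The count called higher, 13, was 6 at an equal sum and 8 in set 1 alone. Over all 11887 tested genes it was 2736 as deposited, 1404 at an equal sum and 1819 in set 1 alone. The count called lower, 1, was 8 at an equal sum, 8 under median-of-ratios scaling, 5 under quantile normalization, 8 with the replicate block, 10 with the set term, 5 in set 2 alone and 0 with only the groups compared. Over all tested genes the count lower, 1043 as deposited, was 1667, 1545, 1105, 2138, 2308, 2144 and 802 in the same order. The block gave 14 members higher, and 3592 over all tested genes. Same-numbered control and polyP libraries correlated at 0.64, 0.07, 0.51, 0.66 and 0.69 in their deviations. They were also of the same set, so a pairing by number is not established there. Leaving out each library gave 12 to 14 higher and 0 to 4 lower. Over all tested genes it gave 2322 to 2771 higher and 789 to 1251 lower, with the 1251 found without control replicate 1. Without control replicate 1 the 4 lower were Iars, Eprs, Aars2 and Lars2, and without polyP replicate 3 Eprs was called (limma adjusted p = 0.0279). For polyP against hSOD1-G93A ACM the count higher, 14, was 7 at an equal sum, 8 under median-of-ratios scaling and 0 in set 1 alone, and 13 to 15 with a library left out. Over all tested genes the count higher, 1760 as deposited, was 787 at an equal sum, 742 under median-of-ratios scaling and 60 in set 1 alone. With a library left out that count was 1173 to 2008. The count lower, 0, was 1 under median-of-ratios scaling, 1 with the replicate block, 1 with the set term and 2 in set 2 alone. Over all tested genes the count lower, 582 as deposited, was 732, 1205, 1289 and 1836 in the same order. For hSOD1-WT ACM against control the count lower, 0, was 1 under quantile normalization and 2 with the set term. Over all tested genes the count lower, 8 as deposited, was 9 and 17 in the same order. The counts of the 2 other comparisons were 0 under every alternative run. Depth is unknown, and small differences in low genes such as Pars2 are limited by it. The sets of libraries were found after the data were examined.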
